A study of Mus musculus with 28 samples.

Results

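This report follows 10 genes of the mammalian circadian clock and its output arm through 28 mouse brain libraries. The members were the rows whose gene symbol was Dbp, Tef, Hlf, Per1, Per2, Per3, Nr1d1, Nr1d2, Arntl or Clock, and all 10 were found among the 23038 genes listed for every library. The genes were selected on their TPM levels in these same libraries, with earlier results of these data in view, and the question behind the list was whether Dbp moves with the other clock genes from library to library. That co-variation is therefore given as a description, with no test.

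The samples were polyA-selected RNA-seq libraries of dissected brain from mice on a C57BL/6J background. Nova1 hu/hu mice carry a CRISPR/Cas9 knock-in that gives the RNA-binding protein NOVA1 its human-type amino acid, valine in place of isoleucine, together with silent mutations used for genotyping, and the line had been backcrossed to C57BL/6J at least 8 times. Nova1 wt/wt mice have the mouse protein. Embryonic midbrain (E18.5, in days of gestation) was sampled in 6 hu/hu and 6 wt/wt libraries, and at postnatal day 21 (P21), midbrain and cortex were each sampled in 4 hu/hu and 4 wt/wt libraries. Mice were kept in a light/dark cycle, and the hour of dissection is not given in the sources used here. The labels do not say whether each library is a separate animal or whether P21 midbrain and cortex came from the same animals, so p-values measure the spread between these libraries.

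The clock is a feedback loop of transcription and translation that runs in nearly every cell. CLOCK and ARNTL (also called BMAL1) form a dimer that binds E-box sequences and drives the Per and Cry genes, whose proteins return to the nucleus and repress that dimer. NR1D1 and NR1D2, the REV-ERB nuclear receptors, repress Arntl, and the PAR bZIP factors DBP, TEF and HLF bind D-box sequences and carry the rhythm to output genes. Per1 and Per2 are also induced by neuronal activity and by glucocorticoids.

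The sequence upstream of some members carries the motifs by which this loop is wired. The 4 windows below are shown because they hold such motifs or, for Dbp, because the co-variation described here centres on that gene. Each is the 250 bases upstream of a RefSeq transcript start in GRCm38.p6, written 5′ to 3′ on the gene's strand, with E-box (CACGTG) and D-box (TTATGTAA or TTATGCAA) matches in capitals.
Dbp: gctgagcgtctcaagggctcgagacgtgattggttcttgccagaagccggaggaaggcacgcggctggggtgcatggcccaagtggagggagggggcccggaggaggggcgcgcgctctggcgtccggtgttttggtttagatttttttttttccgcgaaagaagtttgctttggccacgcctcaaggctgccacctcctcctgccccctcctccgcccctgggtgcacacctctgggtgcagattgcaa
Tef: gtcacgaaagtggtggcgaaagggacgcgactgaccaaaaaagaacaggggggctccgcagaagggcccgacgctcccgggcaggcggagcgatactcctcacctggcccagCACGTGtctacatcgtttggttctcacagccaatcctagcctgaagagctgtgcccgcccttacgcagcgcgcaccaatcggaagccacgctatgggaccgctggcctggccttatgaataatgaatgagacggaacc
Per1: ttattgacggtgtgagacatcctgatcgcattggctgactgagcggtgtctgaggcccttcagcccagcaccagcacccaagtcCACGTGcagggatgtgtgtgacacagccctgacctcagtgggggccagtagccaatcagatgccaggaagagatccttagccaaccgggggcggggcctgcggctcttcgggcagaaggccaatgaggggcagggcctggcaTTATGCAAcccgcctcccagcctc
Per3: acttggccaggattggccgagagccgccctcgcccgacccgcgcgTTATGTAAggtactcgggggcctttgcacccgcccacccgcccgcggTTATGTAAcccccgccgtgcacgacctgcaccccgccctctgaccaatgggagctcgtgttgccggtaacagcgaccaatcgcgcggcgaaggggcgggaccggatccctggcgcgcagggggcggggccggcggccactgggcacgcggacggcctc

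The Dbp window lies at chr7:45704997-45705246 on the plus strand and holds no match to any motif searched. The Tef window, at chr15:81811164-81811413 on the plus strand, holds 1 E-box that begins 138 bases before the start, and the window of another Tef start also holds 1. The Per1 window, at chr11:69098699-69098948 on the plus strand, holds an E-box that begins 166 bases and a D-box that begins 24 bases before the start. The Per3 window, at chr4:151044666-151044915 on the minus strand, holds 2 D-boxes, which begin 205 and 158 bases before the start. None of these matches overlap. Among 32851 windows of the same length, 6.02% held the E-box and 1.5% held a D-box, with both strands searched. A cAMP response element (TGACGTCA) was present in the Hlf window and in 1.55% of all windows, and the ROR response element was present in no member's window and in 0.177% of all windows. RefSeq windows were found for 9 of the 10 members, 14 windows in all, and Per2 was the member without a window.

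The libraries held 18550922 to 45134998 estimated read counts assigned to genes, with medians of 22400090 at E18.5, 35888131 for midbrain at P21 and 31893254 for cortex. The labelled tissues carried their markers: the dopamine transporter Slc6a3 lay at 51.5 to 66.2 TPM in P21 midbrain (TPM is the count per base of exon, scaled to the same sum in every library) and at most at 0.684 in cortex, and the cortical factor Tbr1 lay at 56.1 to 66.2 TPM in cortex and at most at 1.08 in P21 midbrain. The 5 markers listed for the suprachiasmatic nucleus, which houses the master clock, summed to 17 to 93.5 TPM over all libraries. Six6 and Nms were at most at 1.89 and 2.3 TPM, while Avp, a peptide gene also expressed in other hypothalamic nuclei, was at 14.7 to 89.2 TPM at E18.5 and 43.8 to 71 TPM in P21 midbrain, and Vip, also a gene of cortical interneurons, was at 58.4 to 69.5 TPM in cortex. The part of such tissue in the members' levels was not tested. The edited codon is not visible in gene counts, and Nova1 itself was at 49.7 ± 3.40 TPM (SD, n = 4) in hu/hu and 48.1 ± 1.91 TPM (SD, n = 4) in wt/wt P21 midbrain.

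All 10 genes were expressed at both ages and in both regions, and their order differed between ages. Levels between genes are given in TPM, which divides counts by exon length, over the libraries of both genotypes. Nr1d1 was the highest member in all 3 sets, at 76.8 ± 6.50 TPM (SD, n = 12) at E18.5, 142 ± 11.3 TPM (SD, n = 8) in midbrain at P21 and 221 ± 22.02 TPM (SD, n = 8) in cortex, and its libraries did not overlap those of the next gene. It shares exonic bases with the more abundant gene Thra, whose part in this rank was not tested. At E18.5 the activator Arntl came next at 38.4 ± 2.88 TPM (SD, n = 12), followed by Per1 at 29.1 ± 4.48 TPM and Clock at 24.1 ± 1.51 TPM (SD, n = 12 each). Dbp ranked 9 of 10 at E18.5, at 8.13 ± 1.17 TPM (SD, n = 12), and 2 of 10 in P21 midbrain, at 89.2 ± 10.7 TPM (SD, n = 8). Per3 was the lowest member at E18.5 and in P21 cortex, and Per2 was the lowest in P21 midbrain.

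Many neighbours in this order were not separated by their library values. At E18.5 each gene from Arntl down to Hlf overlapped the next, so that only the steps from Nr1d1 to Arntl and from Dbp to Per3 were free of overlap. In P21 midbrain Dbp overlapped Tef, Hlf overlapped Nr1d2, Nr1d2 overlapped Per1, Arntl overlapped Clock and Per3 overlapped Per2. In P21 cortex Tef overlapped Dbp, Dbp overlapped Per1, Per1 overlapped Hlf, Clock overlapped Per2 and Per2 overlapped Per3.

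**Figure D1:**
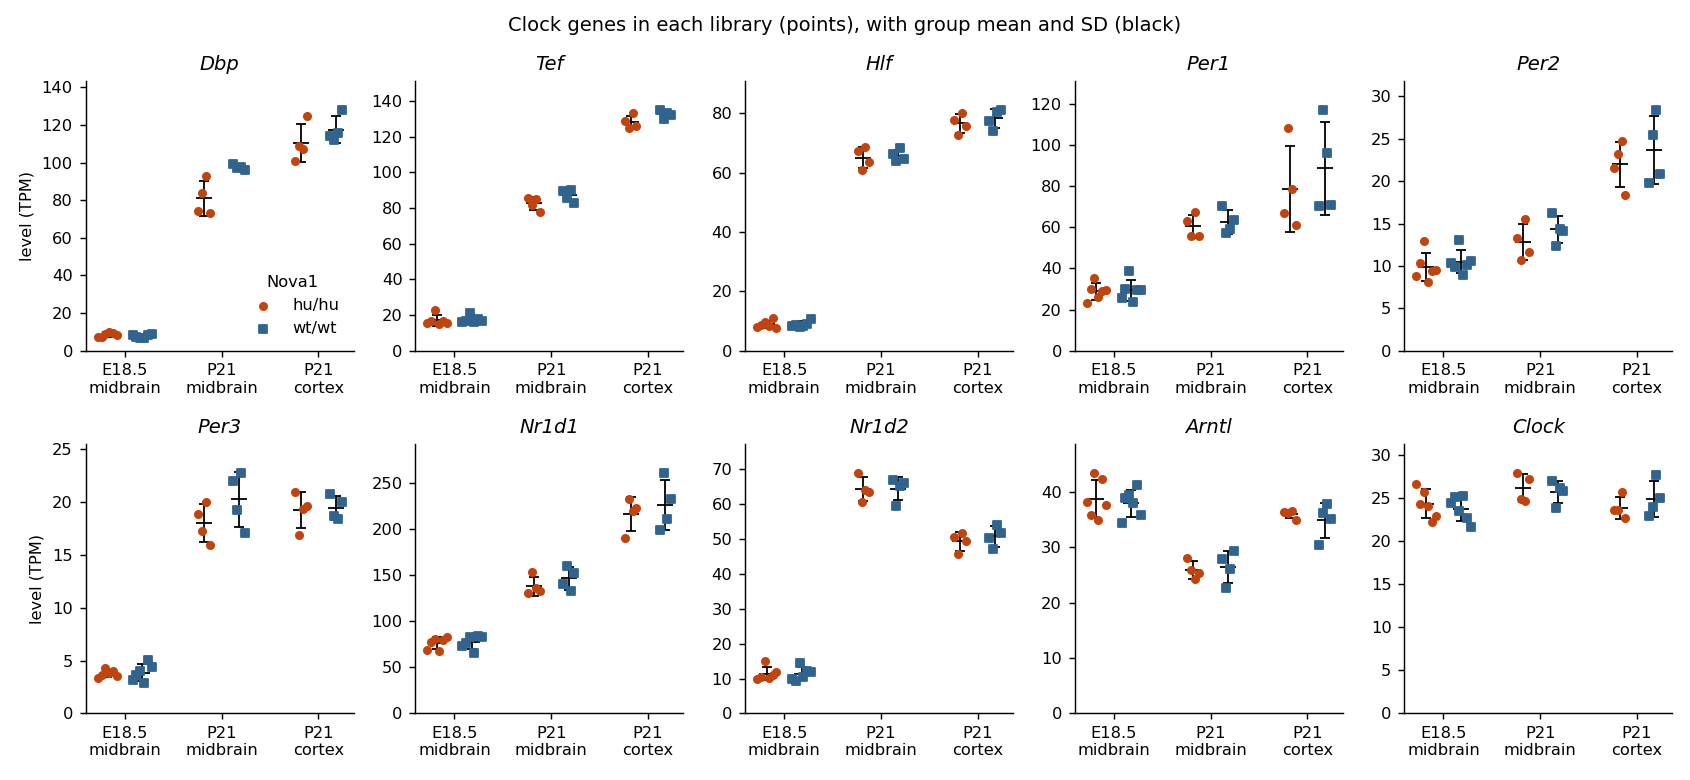
Level of each clock gene in TPM (vertical axis, linear, from 0) in the 3 ages and regions, with hu/hu libraries as circles and wt/wt libraries as squares. Black marks give the mean and SD of each group. Dbp lies at 6.54 to 10.2 TPM at E18.5 and at 73.3 to 99.0 TPM in P21 midbrain, and Per1 spans 61.0 to 117 TPM in P21 cortex.

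Midbrain at P21 differed from midbrain at E18.5 in every member, and by unequal amounts across the arms of the clock. The PAR bZIP output genes were far higher at P21: Dbp 12.6-fold, Hlf 8.48-fold and Tef 5.68-fold. Nr1d2 was 6.50-fold and Per3 5.76-fold higher, while Per1, Nr1d1, Per2 and Clock were 1.24- to 2.43-fold higher. Arntl was the only member lower at P21, by 1.27-fold. All 10 passed the test (edgeR quasi-likelihood test with TMM scaling, p under 0.05 and Benjamini-Hochberg adjusted p under 0.1), 9 higher and 1 lower at P21. Of all 16330 genes tested, 42.3% were called higher and 43.1% lower, and the median log2 fold change was 1.89 over the members and -0.02 over all genes.

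Dbp encodes a transcription factor whose transcript is strongly rhythmic in many tissues. Its lowest, median and highest levels were 6.54, 8.22 and 10.2 TPM at E18.5 and 73.3, 94.5 and 99.0 TPM in P21 midbrain, with no overlap between ages. The log2 fold change of 3.65 (SE 0.07, adjusted p = 5.88e-24) was exceeded by 1.31% of all genes tested. Dbp had 71 to 155 counts in each E18.5 library and 1373 to 2162 in each P21 midbrain library, so its E18.5 levels carry the larger counting error. Sphk2, a sphingosine kinase gene on the strand opposite Dbp that shares 539 of the 2993 annotated exonic bases of Dbp, was also higher at P21 (log2 fold change 1.46, SE 0.05, adjusted p = 2.37e-19), and its part in the Dbp counts was not tested. For Hlf, a paralog of Dbp, the lowest, median and highest levels were 7.82, 8.57 and 10.9 TPM at E18.5 and 60.9, 65.5 and 68.6 TPM at P21. Its log2 fold change was 3.08 (SE 0.05, adjusted p = 8.03e-25). Tef, the remaining PAR bZIP gene, went from 14.7, 16.7 and 22.9 TPM to 77.8, 85.5 and 90.1 TPM, a log2 fold change of 2.51 (SE 0.06, adjusted p = 8.78e-23). For each of the 3 genes the lowest P21 library was several times the highest E18.5 library. The share of all genes that were free of overlap between ages was not measured.

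The Per genes, which encode the repressors of the loop, differed in the size of their change. Per3 was at 2.92, 3.75 and 5.06 TPM (lowest, median and highest) at E18.5 and at 15.9, 19.1 and 22.8 TPM at P21, a log2 fold change of 2.53 (SE 0.08, adjusted p = 7.33e-20). Per1 was at 23.3, 29.4 and 38.5 TPM at E18.5 and at 55.5, 61.0 and 70.1 TPM at P21, a log2 fold change of 1.28 (SE 0.07, adjusted p = 5.66e-15). Neither gene overlapped between ages. Per2 overlapped, with 8.14, 10.01 and 12.96 TPM at E18.5 and 10.7, 13.7 and 16.3 TPM at P21, and its log2 fold change was 0.61 (SE 0.08, adjusted p = 8.28e-08).

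The REV-ERB genes also differed in size. Nr1d2 was at 9.39, 10.7 and 14.9 TPM at E18.5 and at 59.5, 64.6 and 69.0 TPM at P21, a log2 fold change of 2.70 (SE 0.06, adjusted p = 3.59e-22). Nr1d1 was already the highest member at E18.5, with 65.6, 78.4 and 83.6 TPM against 130, 138 and 160 TPM at P21, a log2 fold change of 1.09 (SE 0.05, adjusted p = 7.53e-17). Nr1d1 shares 263 of its 3077 annotated exonic bases with Thra, a thyroid hormone receptor gene on the opposite strand that was at 370 to 524 TPM in midbrain. The use of strand in counting is not stated, so the Nr1d1 counts may hold reads of this more abundant gene, and their part was not tested.

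The activators moved least. Arntl had 34.4, 38.1 and 43.5 TPM at E18.5 and 22.6, 26 and 29.3 TPM at P21, without overlap, and its log2 fold change was -0.35 (SE 0.05, adjusted p = 7.26e-07). Clock had 21.7, 24.2 and 26.7 TPM at E18.5 and 23.9, 26.04 and 28.02 TPM at P21, with overlap, and its log2 fold change was 0.31 (SE 0.04, adjusted p = 2.17e-07). Fold changes come from TMM-scaled counts and can differ from the ratio of TPM values. E18.5 and P21 differ in cell makeup: the summed level of 2 oligodendrocyte markers (Mag and Cnp) was 36.7 to 59.0 TPM at E18.5 and 2690 to 2890 TPM at P21, that of 3 neuronal markers (Rbfox3, Snap25 and Syt1) was 591 to 675 and 2690 to 2960 TPM, and all 5 were present in every group. In bulk tissue fewer cells of a type and less RNA per cell cannot be told apart, and age cannot be told apart from any difference between the collection of the E18.5 and P21 libraries.

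Of 20 further clock genes, 13 were called higher and 6 lower at P21, against 42.3% and 43.1% of all genes tested. Their median log2 fold change was 0.50. The genes with the largest differences upward were Bhlhe41, a repressor of E-box transcription (log2 fold change 2.75, SE 0.09), Usp2, a deubiquitinase of clock proteins (2.45, SE 0.08), Ciart, a repressor of CLOCK and ARNTL listed under its older symbol Gm129 (2.35, SE 0.11), and Bhlhe40, the paralog of Bhlhe41 (2.33, SE 0.07). Those with the largest differences downward were Timeless, a replication fork protein (-1.66, SE 0.09), the kinase gene Csnk1e (-0.85, SE 0.03), Nfil3, which encodes a repressor at D-boxes (-0.80, SE 0.06), and Cry1, the cryptochrome partner of the PER proteins (-0.60, SE 0.06). Cry2, the other cryptochrome gene, was higher at P21 (log2 fold change 1.11, SE 0.05, adjusted p = 1.15e-15); it was named after its value was seen. Nfil3 was at 15.3, 17.4 and 19.8 TPM (lowest, median and highest) at E18.5 and at 7.79, 8.73 and 10.1 TPM at P21, so it was lower at the age where the PAR bZIP genes were higher. Between midbrain and cortex at P21, where Dbp, Tef and Hlf differed, Nfil3 did not pass the test (log2 fold change 0.06, edgeR adjusted p = 0.533). A link between Nfil3 and the PAR bZIP genes was not tested.

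At P21 most members were lower in midbrain than in cortex. Of the 10, 7 were called lower in midbrain and 1 higher, and Per3 and Clock did not pass the test. The lower genes were Per2 (1.78-fold), Nr1d1 (1.64-fold), Tef (1.62-fold), Per1 (1.43-fold), Arntl (1.43-fold), Dbp (1.35-fold) and Hlf (1.25-fold), and Nr1d2 was 1.22-fold higher. Of all 16345 genes tested, 37.9% were called higher and 37.6% lower in midbrain. The median log2 fold change was -0.47 over the members and 0.00 over all genes.

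Among the output genes, Tef separated the regions most, with a lowest, median and highest level of 77.8, 85.5 and 90.1 TPM in midbrain and 124.9, 131 and 135 TPM in cortex (log2 fold change -0.70, SE 0.03, adjusted p = 7.23e-16). Dbp was at 73.3, 94.5 and 99.0 TPM in midbrain and 101, 113 and 128 TPM in cortex, so that its libraries did not overlap either (log2 fold change -0.43, SE 0.05, adjusted p = 2.69e-08). Hlf was at 60.9, 65.5 and 68.6 TPM in midbrain and 72.6, 77.6 and 81.2 TPM in cortex (log2 fold change -0.32, SE 0.03, adjusted p = 7.61e-09). All 3 were thus lower in every midbrain library than in any cortex library. The share of all genes that were free of overlap between regions was not measured.

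The repressors split. Per2 was at 10.7, 13.7 and 16.3 TPM in midbrain and 18.4, 22.4 and 28.4 TPM in cortex (log2 fold change -0.83, SE 0.09, adjusted p = 7.67e-09), and Per1, which overlapped, was at 55.5, 61.0 and 70.1 TPM in midbrain and 61.0, 74.8 and 117 TPM in cortex (log2 fold change -0.52, SE 0.11, adjusted p = 0.000132). Per3 was close to equal, at 15.9, 19.1 and 22.8 TPM in midbrain and 16.9, 19.5 and 20.99 TPM in cortex (log2 fold change -0.09, 95% interval -0.22 to 0.03, adjusted p = 0.163). Without P21 midbrain wt/wt replicate 3, Per3 passed the test, at -0.13 (adjusted p = 0.0592).

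The REV-ERB genes went in opposite directions. Nr1d1 was at 130, 138 and 160 TPM in midbrain and 190, 221 and 261 TPM in cortex (log2 fold change -0.71, SE 0.05, adjusted p = 3.31e-11), and Nr1d2 was at 59.5, 64.6 and 69.0 TPM in midbrain and 45.6, 50.4 and 53.9 TPM in cortex (log2 fold change 0.29, SE 0.04, adjusted p = 2.67e-07). Neither overlapped between regions. Thra, which shares exonic bases with Nr1d1, was also lower in midbrain, at 370 to 403 TPM against 732 to 823 TPM in cortex (log2 fold change -1.09, SE 0.03, adjusted p = 2.69e-20), and its part in the Nr1d1 counts was not tested. Sphk2, which shares exonic bases with Dbp, was likewise lower in midbrain, at 35.6 to 42.0 TPM against 39.8 to 43.6 TPM in cortex (log2 fold change -0.21, SE 0.03, adjusted p = 1.42e-06), and its part in the Dbp counts was not tested.

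Of the activators, Arntl was lower in midbrain, at 22.6, 26 and 29.3 TPM against 30.5, 36.2 and 37.9 TPM in cortex (log2 fold change -0.51, SE 0.05, adjusted p = 4.88e-09). Clock was at 23.9, 26.04 and 28.02 TPM in midbrain and 22.7, 23.9 and 27.7 TPM in cortex, with a log2 fold change of 0.01 (95% interval -0.07 to 0.10, adjusted p = 0.785). Npas2, the Clock paralog of the forebrain, was 3.93-fold lower in midbrain, at 9.85, 12.4 and 13.3 TPM against 41.1, 44.2 and 50.4 TPM, so that Clock and Npas2 differed in their regional pattern. Cell makeup moved with region as well: the 2 oligodendrocyte markers summed to 2690 to 2890 TPM in midbrain and 908 to 997 TPM in cortex, and the 3 neuronal markers to 2690 to 2960 and 3410 to 3690 TPM, all 5 present in every group, and their part in these differences was not tested.

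Of the 20 further clock genes, 5 were called higher and 10 lower in midbrain, against 37.9% and 37.6% of all genes tested. Their median log2 fold change was -0.11. The largest differences upward were in Rora (log2 fold change 1.47, SE 0.06), which encodes an activator of Arntl, in Fbxl21 (1.45, SE 0.10), which encodes an F-box protein of the cryptochromes, in Bhlhe41 (0.98, SE 0.07) and in the cell cycle kinase gene Wee1 (0.32, SE 0.06). Those downward were in Npas2 (-1.98, SE 0.06), Usp2 (-0.98, SE 0.06), Cry2 (-0.62, SE 0.03) and Noct, a rhythmic phosphatase gene listed as Ccrn4l (-0.58, SE 0.04).

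**Figure D2:**
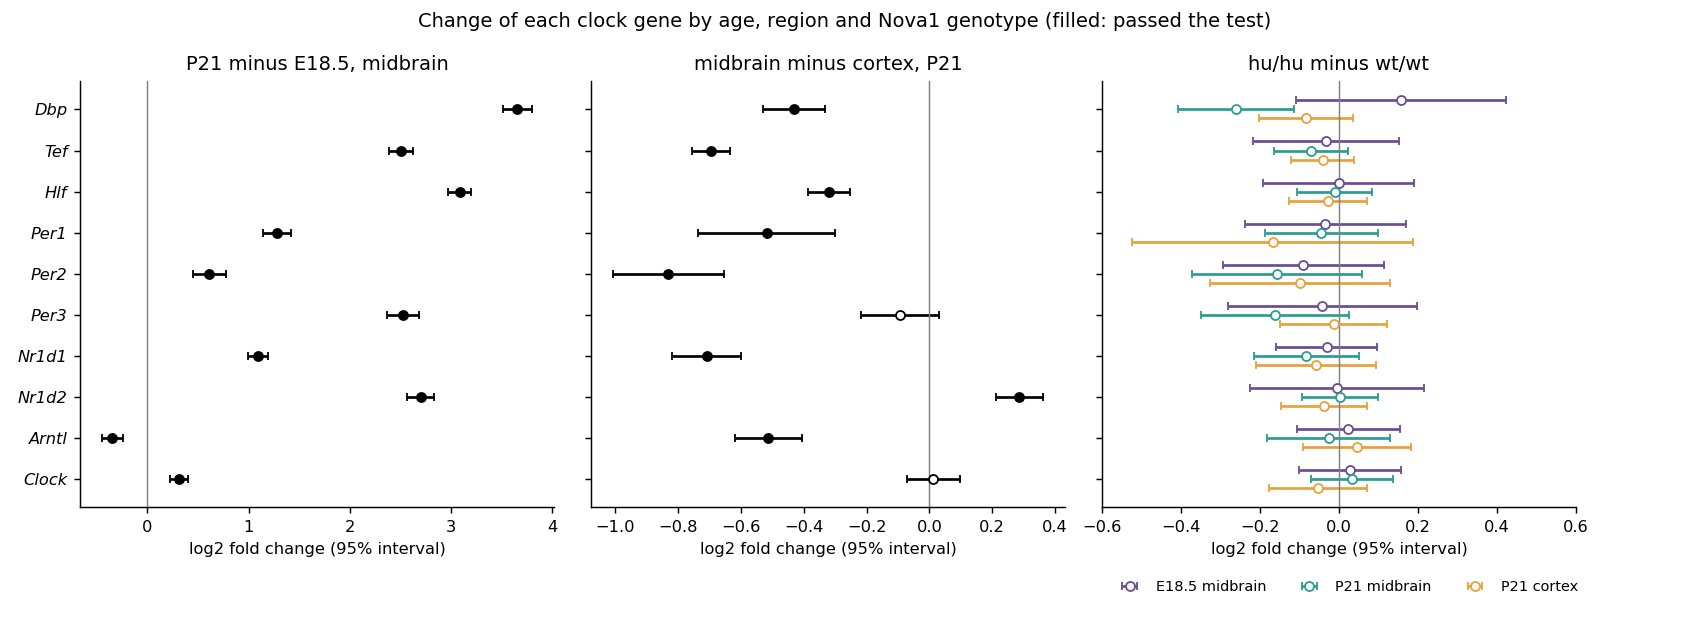
Log2 fold change of each clock gene (horizontal axes, with 95% intervals) for P21 minus E18.5 in midbrain, midbrain minus cortex at P21, and hu/hu minus wt/wt in each age and region; filled points passed the test. Dbp reaches 3.65 with age, 8 of 10 genes pass between regions, and none passes between genotypes.

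The Nova1 comparison asked whether the human-type protein is accompanied by other levels of these genes. No member passed the test between hu/hu and wt/wt in any age or region. In edgeR 0 of 15540 genes were called at E18.5, 0 of 15972 in midbrain at P21 and 0 of 15767 in cortex, which is 0% in each, with 201, 426 and 450 genes at an unadjusted p under 0.05. DESeq2 called 0, 1 and 0 genes, the 1 being Gkn3, which is no clock gene. Same-numbered hu/hu and wt/wt libraries deviated together, and edgeR with a replicate block called 0, 4 and 0 genes. The 4 were Gabra6, Mybpc3 and Cbln3, lower in hu/hu, and Cdr1, higher in hu/hu, and they were named after the result was seen. The median log2 fold change over the members was -0.02, -0.06 and -0.05 in the 3 sets, against 0.00 over all genes.

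Of the members, Dbp had the lowest unadjusted p between genotypes, in P21 midbrain. Its levels were 74.3, 83.6, 92.95 and 73.3 TPM in hu/hu libraries 1 to 4 and 99.0, 97.2, 97.4 and 96.1 TPM in the wt/wt libraries of the same numbers. Every hu/hu library was below every wt/wt library, and the wt/wt libraries lay within a far narrower range. Hu/hu and wt/wt did not overlap for 1.95% of all genes tested in this set, and Dbp was the only member among them. The log2 fold change was -0.26 (SE 0.07, 95% interval -0.41 to -0.11, unadjusted p = 0.0018, edgeR adjusted p = 1), and with the replicate block -0.27 (SE 0.06, unadjusted p = 0.00013, edgeR adjusted p = 0.297). It did not pass the test in either fit. Leaving out each library in turn gave -0.34 to -0.21.

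Marker lists and an overlapping gene were measured in the same P21 midbrain libraries, and 2 lists, those of cortex and microglia, did not overlap between genotypes. Every other list measured overlapped, among them those of neurons, astrocytes, oligodendrocytes and endothelium. The 5 cortex markers, Tbr1, Neurod6, Emx1, Fezf2 and Slc17a7, summed to 132 to 140.0 TPM in hu/hu and 142 to 159 TPM in wt/wt, and the 3 microglia markers, Cx3cr1, P2ry12 and Csf1r, to 128 to 135 and 120 to 124 TPM. Among the cortex markers Tbr1 was at most at 1.08 TPM and Neurod6 at most at 3.2 TPM in these libraries. Only 2 of the 5 exceeded 1 TPM in any hu/hu library and 3 in any wt/wt library, so most of that sum was Slc17a7. The 5 choroid plexus markers ranged from 12.2 to 2850 TPM in hu/hu and 44.8 to 3040 TPM in wt/wt. The 4 cerebellum markers, which include Gabra6 and Cbln3, summed to 8.78 to 13.1 TPM in hu/hu and 8.33 to 25.7 TPM in wt/wt. Sphk2, whose exons overlap those of Dbp, was at 35.6 to 37.8 TPM in hu/hu and 37.6 to 42.0 TPM in wt/wt (log2 fold change -0.12, SE 0.05, unadjusted p = 0.0225, edgeR adjusted p = 1). The part of these measures in the Dbp values was not tested.

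In the other sets Dbp showed smaller or opposite values. In P21 cortex it was at 101, 109, 107 and 124.9 TPM in hu/hu and 114, 112, 116 and 128 TPM in wt/wt libraries 1 to 4, lower in hu/hu in 4 of 4 pairs but with overlapping groups (log2 fold change -0.08, SE 0.06, edgeR adjusted p = 1, and -0.14 without hu/hu replicate 4 or -0.05 without wt/wt replicate 4). No member was free of overlap in cortex, where 2.17% of all genes were. At E18.5 the lowest, median and highest levels were 7.10, 8.72 and 10.2 TPM in hu/hu and 6.54, 7.84 and 8.88 TPM in wt/wt, higher in hu/hu in 3 of 6 pairs (log2 fold change 0.16, SE 0.13, edgeR adjusted p = 1, and 0.09 without hu/hu replicate 4). No member was free of overlap there either, against 0.0515% of all genes. The difference between the genotype effects was -0.42 between P21 and E18.5 midbrain (SE 0.14, unadjusted p = 0.00791, edgeR adjusted p = 1) and -0.17 between P21 midbrain and cortex (SE 0.09, unadjusted p = 0.0828, edgeR adjusted p = 1). In these interaction tests 0 of 16330 and 0 of 16345 genes were called by edgeR, 0% in each, with 303 and 373 at an unadjusted p under 0.05, and DESeq2 called 0 in each.

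No other member was free of overlap between genotypes in any set. Tef in P21 midbrain was at 85.8, 81.6, 85.3 and 77.8 TPM in hu/hu and 89.4, 85.7, 90.1 and 82.9 TPM in wt/wt libraries 1 to 4, lower in 4 of 4 pairs (log2 fold change -0.07, SE 0.04, edgeR adjusted p = 1). Per3 there was at 18.9, 17.3, 20 and 15.9 TPM and 22, 19.3, 22.8 and 17.1 TPM, also lower in 4 of 4 pairs (log2 fold change -0.16, SE 0.09, edgeR adjusted p = 1). In both genes hu/hu and wt/wt were high and low at the same numbers, so the groups overlap although each pair points one way. Per2 in P21 midbrain had a log2 fold change of -0.16 (SE 0.10, edgeR adjusted p = 1). Single libraries moved these values: with each left out, Per2 ran from -0.27 (without hu/hu replicate 3) to -0.08 (without hu/hu replicate 2), Per3 from -0.24 (without wt/wt replicate 4) to -0.10 (without wt/wt replicate 3), and Tef from -0.10 (without wt/wt replicate 4) to -0.04 (without hu/hu replicate 4). With the replicate block in edgeR, Per3 in P21 midbrain was at -0.161 (SE 0.05, unadjusted p = 0.00284, adjusted p = 0.892). Per2 was at -0.165 (unadjusted p = 0.0255), Nr1d1 at -0.08 (unadjusted p = 0.0408) and Tef at -0.07 (unadjusted p = 0.0456). Hlf, Per1, Nr1d2, Arntl and Clock had an unadjusted p of 0.346 or more. Of all 15972 genes, 735 had an unadjusted p under 0.05 in this fit, and no member passed the test. Per1 in P21 cortex was lower in hu/hu in 4 of 4 pairs, at 66.8, 108, 78.6 and 61.0 TPM against 70.2, 117, 96.1 and 70.9 TPM (log2 fold change -0.17, SE 0.17, edgeR adjusted p = 1), and the block on replicate number narrowed the SE to 0.04 (log2 fold change -0.17, unadjusted p = 0.000205, edgeR adjusted p = 0.645). Without the block it was -0.36 without hu/hu replicate 2 and -0.0076 without wt/wt replicate 2.

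The question that chose these genes was whether Dbp moves with the rest of the clock. For this, each library's log2 CPM (the count scaled by library size) was expressed as the deviation from the mean of its own age, region and genotype, and Pearson's r was taken over the 28 deviations, which hold 22 degrees of freedom. Over 15027 genes, r with Dbp had a median of 0.01 and lay between -0.403 and 0.423 for the middle 95%. Libraries of the same number share more than the clock, and Dbp's E18.5 values rest on low counts, so these values describe this set of libraries.

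In these deviations Dbp had its highest r among the members with Hlf and Per3. Its r with Hlf was 0.519 (Spearman's rho 0.516), a value exceeded by 0.699% of all genes, and with Per3 0.411 (rho 0.46), exceeded by 2.87%. Nr1d1 was at 0.178 and Nr1d2 at -0.0101. Tef, Per1, Per2 and Arntl lay between -0.131 and -0.113, inside the range of most genes. Clock, the activator, had the lowest r of the members at -0.358 (rho -0.423), with 95.8% of genes above it. Without the 2 libraries with the largest Dbp deviations, E18.5 hu/hu replicates 2 and 4, r was 0.608 for Hlf, 0.414 for Per3 and -0.504 for Clock. The order changed when the shared replicate number was taken into account. Removing the mean of each number makes the hu/hu and wt/wt deviations of a pair equal and opposite. The values that follow thus rest on 14 pairs, with fewer than 22 degrees of freedom. With the mean of each number also removed, r was 0.465 for Hlf, 0.463 for Per1, 0.437 for Per3, 0.297 for Nr1d1, 0.243 for Per2, -0.00681 for Tef, -0.145 for Arntl, -0.293 for Nr1d2 and -0.359 for Clock, so that Per1 then stood level with Hlf. The mean r over Tef, Hlf and the Per and Nr1d genes was 0.103 (jackknife SE 0.179), and over Arntl and Clock -0.236 (jackknife SE 0.177).

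The pattern was not the same in each tissue. In P21 midbrain, over 8 libraries, Dbp had an r of 0.502 with Tef, 0.443 with Per1, 0.451 with Per2, 0.484 with Per3 and -0.701 with Clock, and the mean over the 7 output and repressor genes was 0.332. In P21 cortex, also over 8 libraries, r was -0.516 with Tef, -0.513 with Per1 and -0.55 with Per2, and the mean was -0.226. At E18.5, over 12 libraries, the r with Hlf was 0.611 and with Per3 0.472, while Tef, Per1 and Per2 lay between -0.239 and -0.0874. The r with Hlf was lower at P21, at 0.36 in midbrain and -0.00132 in cortex. With Per3 it was -0.111 in P21 cortex. The signs for Tef, Per1 and Per2 were therefore opposite in the P21 regions, and this difference was not tested.

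**Figure D3:**
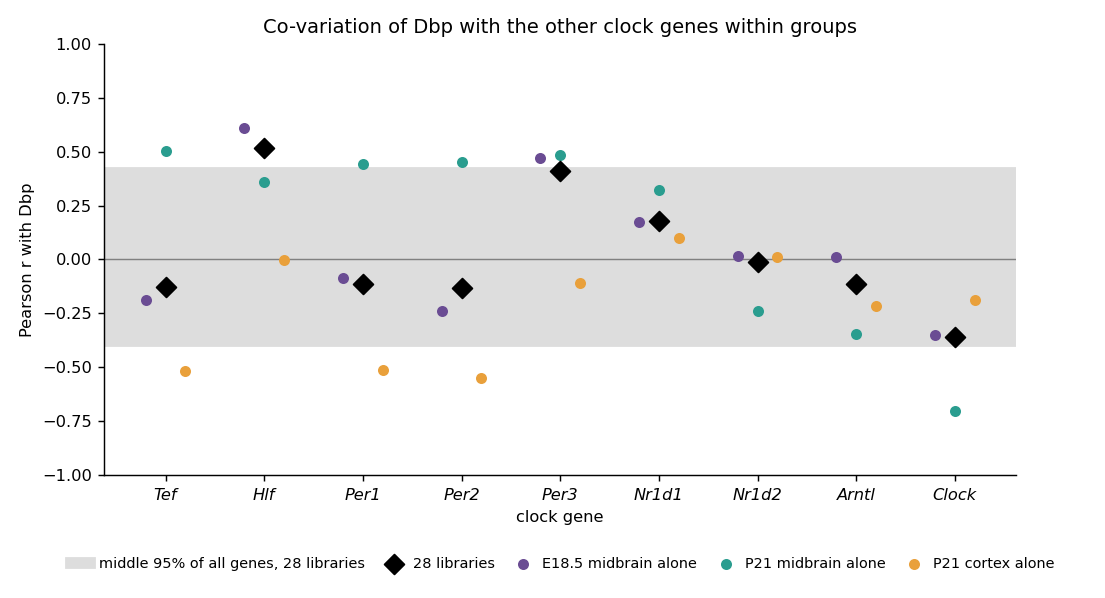
Pearson r of Dbp with each other clock gene (vertical axis, from -1 to 1) over the within-group deviations of 28 libraries (black diamonds) and in each age and region alone (coloured points); the grey band spans -0.403 to 0.423, the middle 95% of r over 15027 genes. Hlf at 0.519 lies above the band, Per3 at 0.411 at its upper edge and Clock at -0.358 near its lower edge, and the P21 midbrain and cortex points of Tef, Per1 and Per2 fall on opposite sides of 0.

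The genes most like Dbp over the 28 libraries were not members. By r they were Zfp367 (0.759), Lag3 (0.751), Adra2c (0.729), Kcnk12 (0.695), Lin37 (0.693), Adi1 (0.674), Nog (0.666), Tac2 (0.665), Trnp1 (0.657) and Rnaseh2c (0.655). At E18.5 alone these genes lay at 0.576 to 0.857. They lay at -0.211 (Adi1) to 0.883 in P21 midbrain and at -0.152 (Tac2) to 0.875 in P21 cortex. The lowest were Ccdc17 (-0.707), Oscar (-0.661), Atp10b (-0.65), Gpr125 (-0.631) and Efna1 (-0.626). They lay at -0.818 to -0.647 at E18.5, at -0.761 to -0.51 in P21 midbrain and at -0.462 to 0.0161 in P21 cortex. Among the further clock genes Bhlhe41, a repressor of E-box transcription, had the highest r at 0.55, and Rorb followed at 0.398. The D-box repressor Nfil3 stood at 0.0608 over the 28 libraries, which combined 0.863 at E18.5, -0.836 in P21 midbrain and -0.513 in P21 cortex.

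Over the 28 libraries some pairs of other members had a higher r than any pair with Dbp. Tef and Nr1d2 had an r of 0.792, Per1 and Per2 of 0.772 and Tef and Per2 of 0.644. Per1 and Per2, the pair of paralogous repressors, held in each tissue, at 0.839 at E18.5, 0.939 in P21 midbrain and 0.751 in P21 cortex. Tef and Nr1d2 rested in part on replicate 3 at E18.5, where Tef stood at 22.9 TPM in hu/hu and 20.9 TPM in wt/wt against 14.7 to 17.6 TPM in the other 10 libraries. Nr1d2 stood at 14.9 and 14.4 TPM there against 9.39 to 12.1 TPM. Without those 2 libraries r was 0.459 for Tef and Nr1d2, 0.452 for Tef and Per2 and 0.718 for Per1 and Per2. In P21 midbrain Tef and Nr1d2 had 0.339, and in P21 cortex Tef and Per2 had 0.339. With all libraries and the mean of each number removed, r was 0.459 for Tef and Nr1d2, 0.262 for Tef and Per2 and 0.692 for Per1 and Per2. Dbp and Hlf then had 0.465, and Arntl and Clock 0.669 against 0.351 before. For Hlf the highest r with any member was that with Dbp, followed by 0.478 with Per3. Nr1d1 and Clock had the lowest r of any pair, -0.538.

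Most members deviated alike in the hu/hu and wt/wt libraries that bear the same number, while the r of Dbp was below 0 at E18.5 and above 0 at P21. Over the 14 number pairs, the r between the hu/hu and the wt/wt deviation was 0.95 for Tef, 0.883 for Nr1d2, 0.862 for Per1, 0.807 for Nr1d1, 0.727 for Per2, 0.587 for Clock and 0.501 for Per3. For Arntl it was 0.0721, for Dbp -0.105 and for Hlf -0.201. The low values of Dbp and Hlf came from E18.5: over the 6 E18.5 pairs r was -0.269 for Dbp and -0.403 for Hlf, and over the 8 P21 pairs 0.541 and 0.773. Counts in each E18.5 library were 71 to 155 for Dbp, 134 to 274 for Per3, 259 to 466 for Hlf, 294 to 649 for Nr1d2 and 309 to 638 for Per2. Per3 was also lower at E18.5, with an r of 0.276 against 0.869 at P21. Over the E18.5 pairs r was 0.892 for Nr1d2 and 0.876 for Per2. The part of counting error was not tested. Arntl was low at both ages, at 0.219 and -0.0206. Tef had the same sign in 13 of 14 pairs, Per1 and Nr1d1 in 12 each, and Dbp in 8. Libraries of the same number agreed in 14 of 14 pairs in whether Xist, expressed from the inactive X chromosome of females, or the Y-linked Ddx3y was higher, so each pair was of 1 sex by these genes. The labels do not say what else libraries of a number share, and the part of sex in these deviations was not tested.

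**Figure D4:**
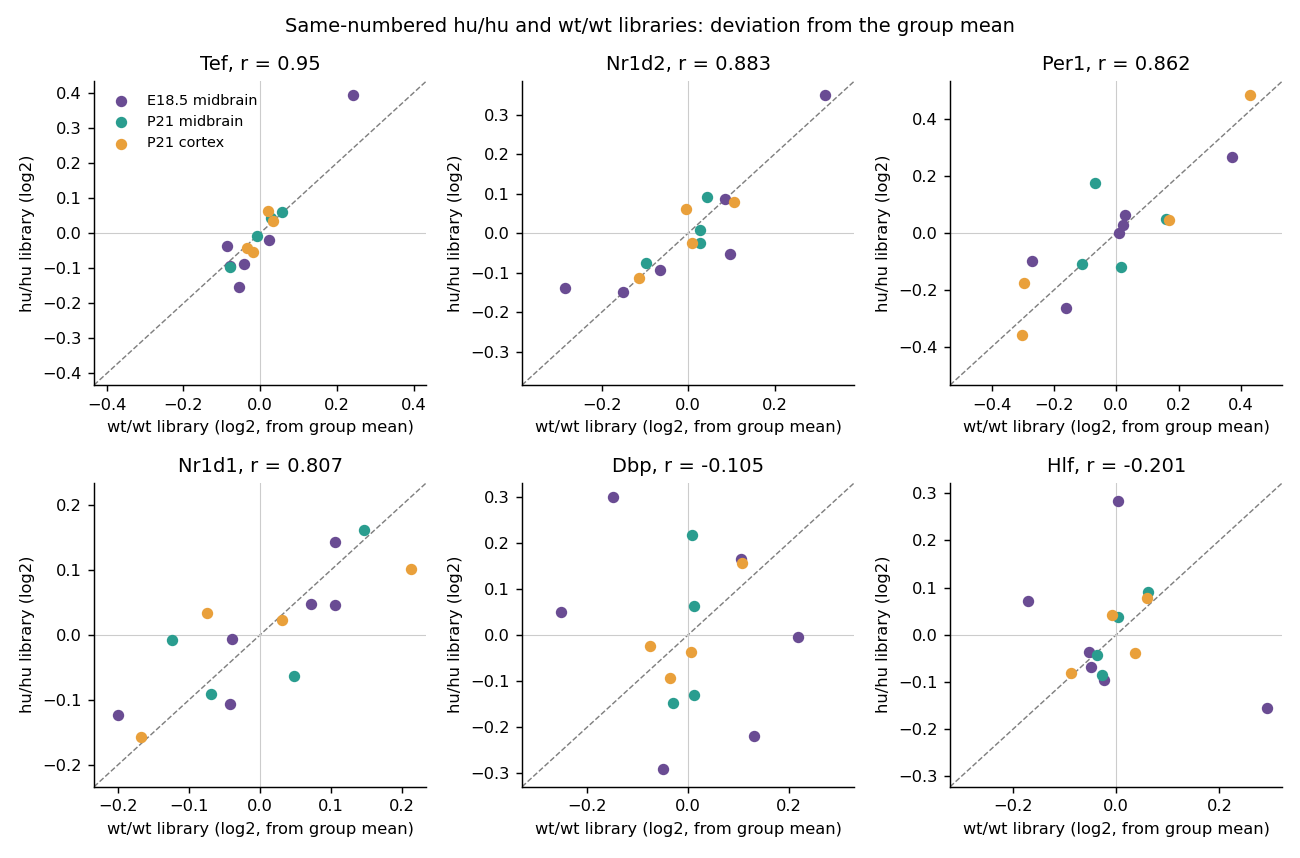
Deviation of each hu/hu library (vertical axis) against the wt/wt library of the same number (horizontal axis), both in log2 units from the group mean, for 6 clock genes and 14 pairs; the dashed line marks equal deviation. Tef, Nr1d2, Per1 and Nr1d1 follow the line, with r from 0.807 to 0.95, while Dbp (-0.105) and Hlf (-0.201) do not over all pairs, with their E18.5 points farthest from it.

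Per1 and Per2 had the widest spread among the members in P21 cortex. The within-group SD of Per1 there was 0.362 on the log2 scale, wider than in all but 0.2% of the 500 genes closest to it in level, and that of Per2 was 0.226, wider than in all but 0.8%. Tef had the narrowest spread in cortex, with an SD of 0.047. The highest Per1 library of each genotype was replicate 2, with 108 TPM in hu/hu and 117 TPM in wt/wt.

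Genes induced by neuronal activity were high in the same libraries. Fos, an immediate early transcription factor gene, was at 16, 48.4, 32.8 and 14.3 TPM in hu/hu cortex libraries 1 to 4 and at 7.6, 48.2, 34.3 and 15.5 TPM in wt/wt. Arc, a synaptic immediate early gene, was at 34.6, 295, 76.8 and 53.1 TPM and at 32, 290, 137 and 61.3 TPM. In both genes and both genotypes replicate 2 was the highest, as it was for Per1. The mean deviation of 8 immediate early genes, those of 10 listed that passed the filter in all 3 sets, had an r with Per1 of 0.732 over 28 libraries and 0.922 over the 8 cortex libraries, and of 0.479 and 0.745 without the 2 cortex libraries of replicate 2. At E18.5 and in P21 midbrain the r with Per1 was lower, at 0.463 and 0.284. Other members varied in their r with this list. Over 28 libraries and in cortex r was 0.456 and 0.828 with Nr1d1, 0.466 and 0.568 with Arntl, 0.385 and 0.624 with Per2, -0.337 and -0.905 with Per3, and -0.134 and -0.163 with Dbp. In P21 midbrain r was -0.262 with Nr1d1, 0.707 with Arntl, 0.116 with Per2, -0.531 with Per3 and -0.553 with Dbp. Immediate early genes differed by region as Per1 did, with 8 of 10 called lower in midbrain, against 37.6% of all genes tested. Their median log2 fold change was -2.16, against 0.00 over all genes.

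Genes induced by glucocorticoids formed another list, with which Tef had the highest r of the members. Their mean deviation over 8 genes had an r with Tef of 0.639 over 28 libraries and of 0.96 over the 12 E18.5 libraries, and of 0.549 and 0.539 without replicate 3 at E18.5. In that replicate Fkbp5, a chaperone gene induced by the glucocorticoid receptor, was at 57.9 TPM in hu/hu and 49.6 TPM in wt/wt against 35.3 to 44.3 TPM in the other 10 libraries. At E18.5 the r of this list was also high with Per2 (0.857), Nr1d2 (0.811) and Per1 (0.777). Over 28 libraries it was 0.314 with Per2, 0.425 with Nr1d2 and 0.0869 with Per1. Replicate 3 held the highest E18.5 value of these genes too in each genotype, and their r without it was not computed. With Per3 r was 0.533 over 28 libraries and 0.716 in cortex, and with Hlf 0.812 in P21 midbrain. With Dbp it was 0.0447 over 28 libraries, -0.0458 at E18.5, 0.509 in P21 midbrain and -0.478 in P21 cortex. In P21 cortex it was 0.484 with Tef, 0.122 with Nr1d2, -0.37 with Per2, -0.406 with Per1 and -0.712 with Nr1d1. For another list, 6 genes that respond to cold or heat, r was at most 0.364 in size with any member over 28 libraries, the value for Clock, and in P21 midbrain alone it was 0.856 with Nr1d2, 0.765 with Clock, -0.639 with Nr1d1 and 0.627 with Per1.

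**Figure D5:**
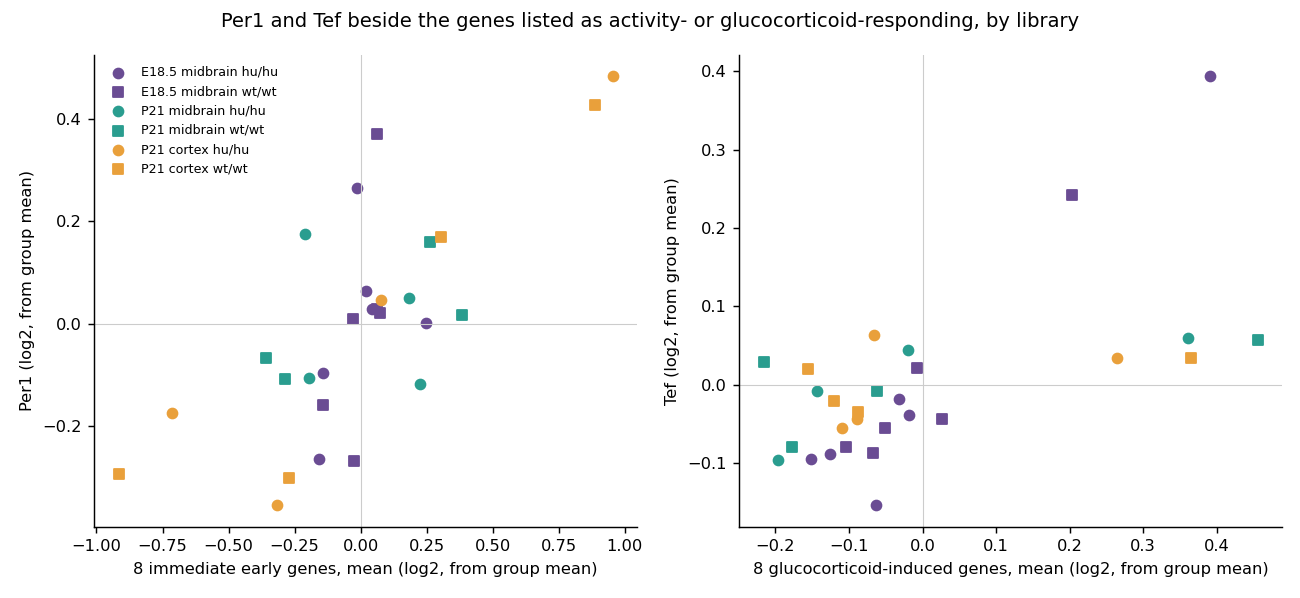
Deviation of Per1 (left) and Tef (right) from the group mean, in log2 units (vertical axes), against the mean deviation of 8 immediate early genes (left) and 8 glucocorticoid-induced genes (right), for 28 libraries; colours give age and region, circles hu/hu and squares wt/wt. The 2 cortex libraries of replicate 2 lie at the upper right for Per1, and the 2 E18.5 libraries of replicate 3 hold the highest Tef values.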

How the data were processed

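The 28 libraries were prepared by polyA selection and sequenced as paired ends. The authors aligned reads to mm10 with OLego and counted them with Quantas, and the deposited files give an estimated count, an RPKM value and an exon length for each gene. The annotation version and the use of strand are not given in the sources used here. The deposited RPKM values equalled those computed from counts and lengths to within 9.33e-15. TPM was computed from counts and exon lengths. Members and lists were chosen with earlier results of these data known. Estimated counts were rounded, filtered by filterByExpr and tested in edgeR 4.0.16 (R 4.3.3) with TMM factors and the quasi-likelihood test, 1 mean per age, region and genotype, and p-values adjusted over all genes by Benjamini-Hochberg. A gene was called at p under 0.05 and adjusted p under 0.1. Log2 CPM for co-variation used a prior count of 2. Beside the members, 20 further clock genes (Npas2, Arntl2, Cry1, Cry2, Ciart, Rora, Rorb, Nfil3, Bhlhe40, Bhlhe41, Csnk1d, Csnk1e, Fbxl21, Btrc, Fbxw11, Usp2, Noct, Cipc, Wee1, Timeless) were counted, and up to 4 called genes in each direction were named by size. Some genes of the original lists are not reported here. The genes most like Dbp were the 10 highest and 5 lowest by r. Same-numbered hu/hu and wt/wt libraries had correlations of deviations over all genes of 0.256 to 0.499 (E18.5), 0.266 to 0.3 (midbrain at P21) and 0.252 to 0.31 (cortex), so the replicate number was also fitted as a block. Alternatives were RLE factors, DESeq2 1.42.0, other filters, a stricter threshold, the replicate block, each library left out and a fit of all libraries. Scripts were tested on simulated counts.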

Additional observations from a re-analysis of the deposited data

Results flagged for a closer look

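Of 60 combinations of member and group, 4 had a library that stood apart from the others of its group, where chance flags about 1 in 20, or 3. Tef stood at 22.9 TPM in E18.5 midbrain hu/hu replicate 3, against 16.9 TPM in the next library, and at 20.9 TPM in E18.5 midbrain wt/wt replicate 3, against 17.6 TPM. Nr1d2 stood at 14.9 TPM in the same hu/hu replicate 3, against 11.8 TPM. Hlf stood at 10.8 TPM in E18.5 midbrain wt/wt replicate 6, against 8.89 TPM. The replicate 3 libraries are the pair whose effect on the correlations of Tef is given above.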

How the results depend on the processing

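The comparisons of region at P21 and age in midbrain called 12337 and 13947 genes, where other settings with every library gave 11370 to 13076 and 12473 to 15124, and each library left out gave 12176 to 12296 and 13829 to 13956. The counts of members called were 7 lower and 1 higher between regions and 9 higher and 1 lower between ages under the alternatives with every library, and 7 to 8 were lower between regions with each library left out, the 8 without P21 midbrain wt/wt replicate 3. Between genotypes edgeR called 0 genes in every set and interaction under the alternatives, except in P21 midbrain, where DESeq2 called 1 and the replicate block 4, and no member was called. Clock between regions lay near 0, from -0.00619 to 0.0423 with each library left out, and changed sign without P21 cortex hu/hu replicate 4 (-0.00426), P21 cortex wt/wt replicate 1 (-0.00619) or P21 midbrain hu/hu replicate 1 (-0.00108). The replicate block changed no call of a member. For the co-variation of Dbp, the mean r with Tef, Hlf, Per1, Per2, Per3, Nr1d1 and Nr1d2 was 0.332 in P21 midbrain alone and -0.226 in P21 cortex alone, and 0.0419 to 0.206 with each library left out; with Arntl and Clock it was -0.524 in P21 midbrain alone and -0.361 to -0.175. The cause was not tested. Same-numbered libraries did not deviate together across regions (correlations of -0.216 to -0.119), and across ages 6 of 8 pairs were over 0.1 but not all (-0.167 to 0.179), so the numbers were not taken to pair them, and the replicate block gave 12220 and 13687 calls there. Settings without the replicate 2 cortex and replicate 3 E18.5 libraries were chosen after seeing the data. Low E18.5 counts limit the precision of Dbp and Per3.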
